A study of Arabis alpina with 2 samples.

Results

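The sites described here are 245 base changes on chromosomes 2 and 6 of Arabis alpina, an alpine perennial of the cabbage family. They were taken from 1390 such changes in a pool of mutant plants, of which 116 lay on chromosome 2 and 129 on chromosome 6. A site was a member when it read G-to-A or C-to-T, reached a variant quality of 25 and 10 reads of coverage, and had no entry at its position in the list of the progenitor. The base change, the quality, the coverage and the missing progenitor entry therefore chose the members and are given as a description. The allele frequency, the order of the types and the spacing were not part of the rule, although the variant quality depends in part on the alternative reads.

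The pool was made of eop055 plants from a BC1F2 family: a mutagenised line was selfed, crossed back to its progenitor pep1-1, selfed again, and plants with the mutant phenotype were picked. The progenitor library came from pep1-1, the parent of the mutagenised line. Both libraries were genomic DNA of flower buds from plants of the Pajares accession grown in long days, and both groups carry pep1-1. Each group had 1 library, so no difference has a replicate check, and how many plants stand behind each is not stated in the labels. The pool list held 14923 sites with a median coverage of 106 reads and the progenitor list 14029 sites with a median of 100 reads. Positions are counted from 1 on the chromosomes of the assembly used by the authors, whose name no label states outright. Genes at these positions and the sequence around them were not analysed here.

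Alkylating mutagens act mostly on guanine, and the altered guanine pairs with thymine at replication. A guanine hit on the strand of the reference is then listed as G-to-A, and a guanine hit on the opposite strand as C-to-T, so the type of a marker tells which strand carried the guanine. In a backcross followed by selfing, a change that has no bearing on the selected phenotype is carried by 0.5 of the chromosomes on average. A recessive causal change and its close neighbours move towards 1 in plants picked by phenotype, and the allele on the other parental chromosome moves away with them. Neighbouring markers are inherited together, so their frequencies are not independent of each other.

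The markers were spread over both chromosomes. Chromosome 2 held 3.17 markers per Mb over the 36.6 Mb between its outermost listed sites, and chromosome 6 held 3.88 per Mb over 33.2 Mb. Among the 8 chromosomes these densities ranked 7 and 6 from the highest, within a range from 2.94 on chromosome 4 to 7.97 on chromosome 5. Of 37 bins of 1 Mb on chromosome 2, 4 held no marker, and of 34 on chromosome 6, 2 held none. The densest bin on chromosome 2 was the one that starts at 33 Mb, with 11 markers, and on chromosome 6 the one that starts at 19 Mb, with 8. The median distance between neighbours was 122 kb on chromosome 2 and 166 kb on chromosome 6.

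The longest interval without a marker ran from C16816025T to C19312153T on chromosome 2, a distance of 2.50 Mb. The pool list itself was not empty there: it held 136 sites, of which 7 were pool-only sites past both minimums. The longest interval on chromosome 6 was 1.93 Mb, between 26427045 and 28354094, and held 15 listed sites, 3 of them pool-only and past the minimums.

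Chromosome 2 differed from chromosome 6 in how tightly some markers were packed. It held 17 neighbouring pairs within 1 kb of each other, against 1 on chromosome 6. Its closest pairs were 3 bases apart, G12732120A with G12732123A and G26851190A with G26851193A. On chromosome 6 the closest pair was G32868352A and C32868402T, 50 bases apart. Close pairs of this kind can be covered by the same reads and are not separate measurements.

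The markers made up 116 of 270 pool-only sites past the minimums on chromosome 2, or 43.0% (95% Wilson interval 37.2 to 48.9%), and 129 of 229 on chromosome 6, or 56.3% (49.9 to 62.6%). These intervals, like all below, cover counting error only. G-to-T and C-to-A changes made up 24.1% of the same pool-only sites on chromosome 2 and 26.2% on chromosome 6. The progenitor, treated the same way, had 42 unshared changes of these types on chromosome 2 and 22 on chromosome 6, or 1.16 and 0.660 per Mb. A change of these types that is listed in 1 library only was thus more frequent in the pool than in the progenitor on both chromosomes, by counts that were not tested. The progenitor-only sites lay nearer the quality minimum. Their median variant qualities were 33.0 on chromosome 2 and 37.5 on chromosome 6, against 130 and 217 for the markers.

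The thresholds cut through a continuous list. Without minimums there were 163 sites on chromosome 2 and 165 on chromosome 6, and quality alone removed 46 and 31 of them, with median allele frequencies of 0.423 and 0.417. Just inside the quality minimum on chromosome 2 lay G14661417A (25.5) and G14661188A (26.02), and just outside lay C20601616T and G35783678A, both at 24.5. On chromosome 6 the corresponding sites were G21989760A (26.5) and G28935504A (27.5) inside, and G30204536A (23.5) and C18638902T (21.5) outside. Coverage alone removed 1 site on each chromosome, G13976641A and G27574604A, with 2 reads each. The members with the fewest reads were G20173872A (26 reads) and G878799A (29 reads) on chromosome 2, and G21989760A and G16807801A (25 reads each) on chromosome 6, all well above the minimum of 10.

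On chromosome 6 the 2 types lay in alternating blocks. It held 64 G-to-A and 65 C-to-T markers, yet 112 of its 128 neighbouring pairs, 87.5% (80.7 to 92.2%), were of 1 type. Over all 8 chromosomes the share was 80.4% of 1331 pairs, with chromosomes of mostly 1 type included. In the progenitor-only sites of chromosome 6 it was 7 of 21, or 33.3% (17.2 to 54.6%). The 129 markers formed 17 runs of 1 type, and 6 runs of 10 or more markers held 105 of them, or 81.4%. The longest run was 26 G-to-A markers over 6.90 Mb, from G8021376A to G14916569A. The next was 22 C-to-T markers over 3.55 Mb, from C17049819T to C20595574T.

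A division into blocks, in which each change of type cost as much as 3 markers of the other type, gave 5 blocks on chromosome 6. This division was chosen after the order of the types had been seen. The block at the left end ran from 335262 to 5308765 and held 16 C-to-T markers and no other. It was followed by 37 G-to-A markers and 1 other between 5613881 and 14916569. The middle block held 40 C-to-T markers and 3 others between 15177095 and 23915105. Next came 23 G-to-A markers and 1 other between 24387417 and 31954080, and the right end, from 32012497 to 33150010, held 7 C-to-T markers and 1 other. Read by the types, the strand that carried the changed guanine was mostly the same over stretches of several megabases and switched 4 times. The switches lay within intervals of 305, 261, 472 and 58.4 kb, the distances between the outermost markers of adjoining blocks.

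**Figure D1:**
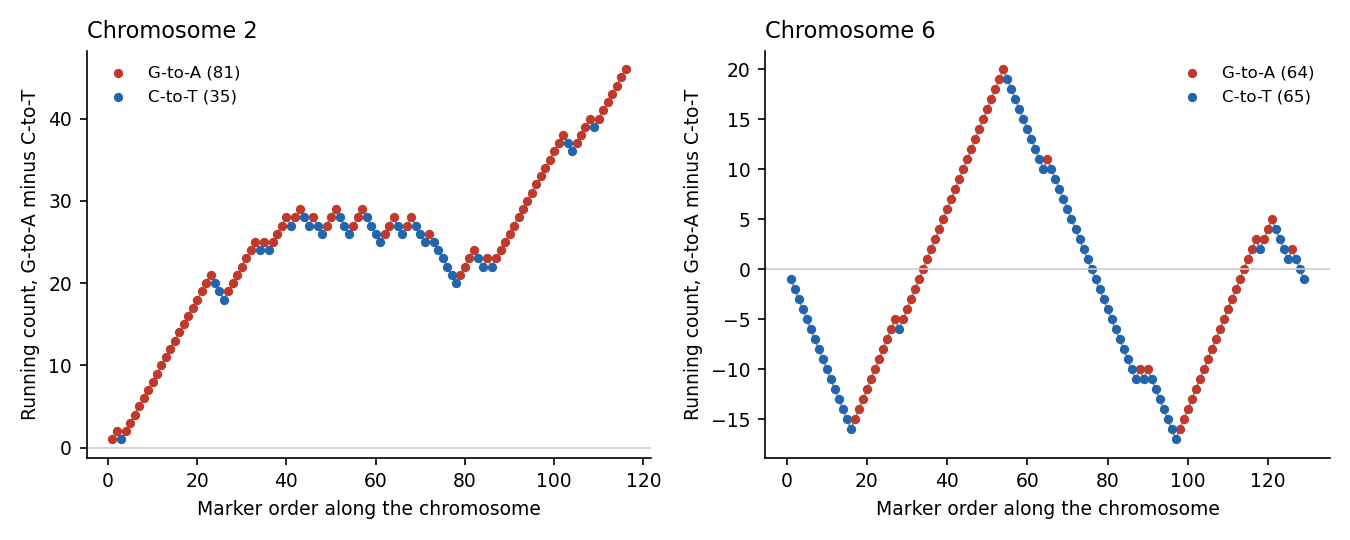
Running count of G-to-A minus C-to-T markers (y axis) against the order of the markers along chromosome 2 (left) and chromosome 6 (right), with each point a marker coloured by its type. Chromosome 6 falls to -16 at its 16th marker, climbs to 20, falls to -17 and ends at -1, while chromosome 2 climbs to 46 with a flat middle.

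Markers that went against the type of their block were few on chromosome 6. The 6 such markers had a median allele frequency of 0.305 (range 0.204 to 0.519) and a median coverage of 47 reads, against 0.444 and 65 reads for the other 123. C7874753T stood at 0.519 with 131 reads and C30679571T at 0.321 with 140 reads, both of them deeper than nearly all other chromosome 6 markers. G16807801A (0.480) and G21989760A (0.240) had 25 reads each, G21588156A had 45 reads (0.289) and G32868352A had 49 reads (0.204). A progenitor-listed site lay within 1 kb of 3 of these 6 markers, against 9 of the other 123.

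Chromosome 2 was less regular. It held 81 G-to-A markers, 69.8% (60.9 to 77.4%), and 35 C-to-T markers. Of its 115 neighbouring pairs, 83 were of 1 type, 72.2% (63.4 to 79.5%), a share that ranked 7 among the 8 chromosomes. The corresponding value for its progenitor-only sites was 24 of 41, or 58.5% (43.4 to 72.2%). Such shares depend on the balance of the types, which the rank does not correct for. On chromosomes 3 and 8, 93.8% and 93.7% of markers were G-to-A. Chromosome 2 broke into 33 runs, of which 10 were single markers and only 2 reached 10 or more. The longest held 20 G-to-A markers from G1139621A to G5191512A, over 4.05 Mb, and the next 16 G-to-A markers from G28484484A to G33462447A, over 4.98 Mb.

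The same division gave 3 blocks on chromosome 2. The left block, up to 13899738, held 36 G-to-A markers and 7 others, and the right block, from 24368055 on, held 32 and 6 others. The middle block, from 13986818 to 24319523, was mixed, with 22 C-to-T and 13 G-to-A markers. At a cost of 5 markers per change the whole of chromosome 2 became 1 block, so its blocks are less clear than those of chromosome 6, which stayed at 5.

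The G-to-A and C-to-T markers had median allele frequencies of 0.433 and 0.449 on chromosome 2, and 0.432 and 0.446 on chromosome 6. The difference between the types was not tested. For reading single markers, the median half-width of their 95% intervals was 0.108 on chromosome 2 and 0.117 on chromosome 6. The blocks of chromosome 6 had medians of 0.467, 0.447, 0.446, 0.426 and 0.365 from left to right, each over the markers of both types.

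Most markers on both chromosomes lay somewhat below 0.5. The median allele frequency was 0.435 on chromosome 2 (95% interval from order statistics 0.409 to 0.451, interquartile range 0.362 to 0.495) and 0.444 on chromosome 6 (0.419 to 0.462, interquartile range 0.390 to 0.5). These intervals treat linked markers as separate, so they are too narrow. They overlapped, and the 2 chromosomes were the lowest of the 8 by median. Chromosomes 4 and 5 came next, at 0.452 (0.437 to 0.464) and 0.459 (0.446 to 0.48). Their intervals overlapped those of chromosomes 2 and 6, so the rank does not set these 2 apart. On chromosome 2, 90 of 116 markers were below 0.5, or 77.6%, and on chromosome 6, 92 of 129, or 71.3%. The share was 52.4% of all pool markers, but it was 69.5% on chromosome 4 and 69.0% on chromosome 5, and 12.6% on chromosome 8. The band from 0.4 to 0.6 held 63 markers of chromosome 2 (54.3%) and 92 of chromosome 6 (71.3%), against 54.5% of all pool markers. Progenitor-only sites of the same types had medians of 0.371 on chromosome 2 and 0.383 on chromosome 6.

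**Figure D2:**
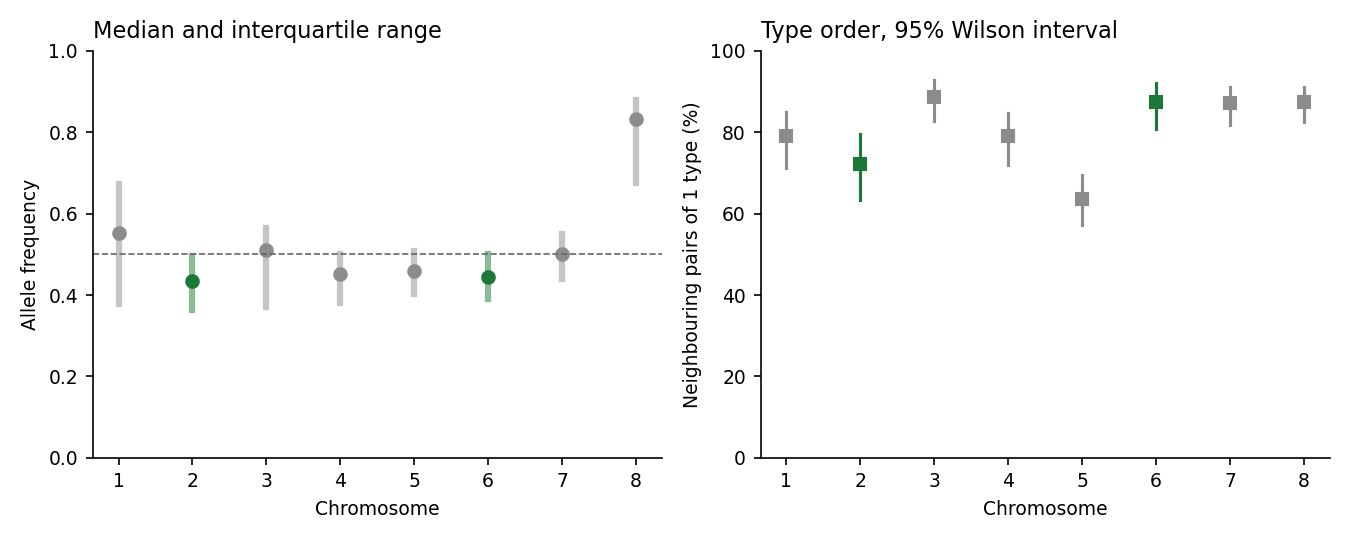
Left, median (point) and interquartile range (bar) of marker allele frequency on each of the 8 chromosomes, with 0.5 dashed. Right, percent of neighbouring marker pairs of 1 type with 95% Wilson interval. Chromosomes 2 and 6, in green, have the lowest medians, 0.435 and 0.444, and stand at 72.2% and 87.5% of pairs. The medians of chromosomes 4 and 5 come next, at 0.452 and 0.459.

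Departures from 0.5 were tested marker by marker with a two-sided exact binomial test of the reads, and p-values were adjusted by Benjamini-Hochberg over all 1390 markers (threshold 0.05). The test covers the sampling of reads and not that of plants, and it compares this library with 0.5. Of all markers, 31.9% departed, 17.8% upwards and 14.1% downwards. The 264 progenitor-only sites of the same types, on all sequences, were adjusted among themselves, and 33.3% departed, 7.95% upwards and 25.4% downwards. The progenitor was not a backcross pool, so 0.5 is no expected value for it and these shares are no baseline. On chromosome 2, 38 markers departed, 27 of them lower (23.3%) and 11 higher (9.48%). On chromosome 6, 17 markers departed, or 13.2%, all of them lower, and none was higher. Without adjustment, at a p of 0.05, 25 markers of chromosome 6 were lower and 1 was higher. The pool figures include chromosome 8, where 4.93% of markers were lower and 75.8% higher. The share of lower calls on chromosome 2 lay beside the 22.4% of chromosome 1 and the 22.5% of chromosome 3, and below the 28.6% of its own progenitor-only sites. Those were 42 sites with a median coverage of 85.5 reads against 72.5 for the markers, so departures could be called more readily there. The share of lower calls on chromosome 6 lay within the range of the 8 chromosomes, and above the 9.09% of its progenitor-only sites. The latter was 2 of 22 sites, with a median coverage of 33 reads against 65 for the markers, so fewer departures could be called there. Differences between chromosomes were not tested, because linked markers are not independent.

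**Figure D3:**
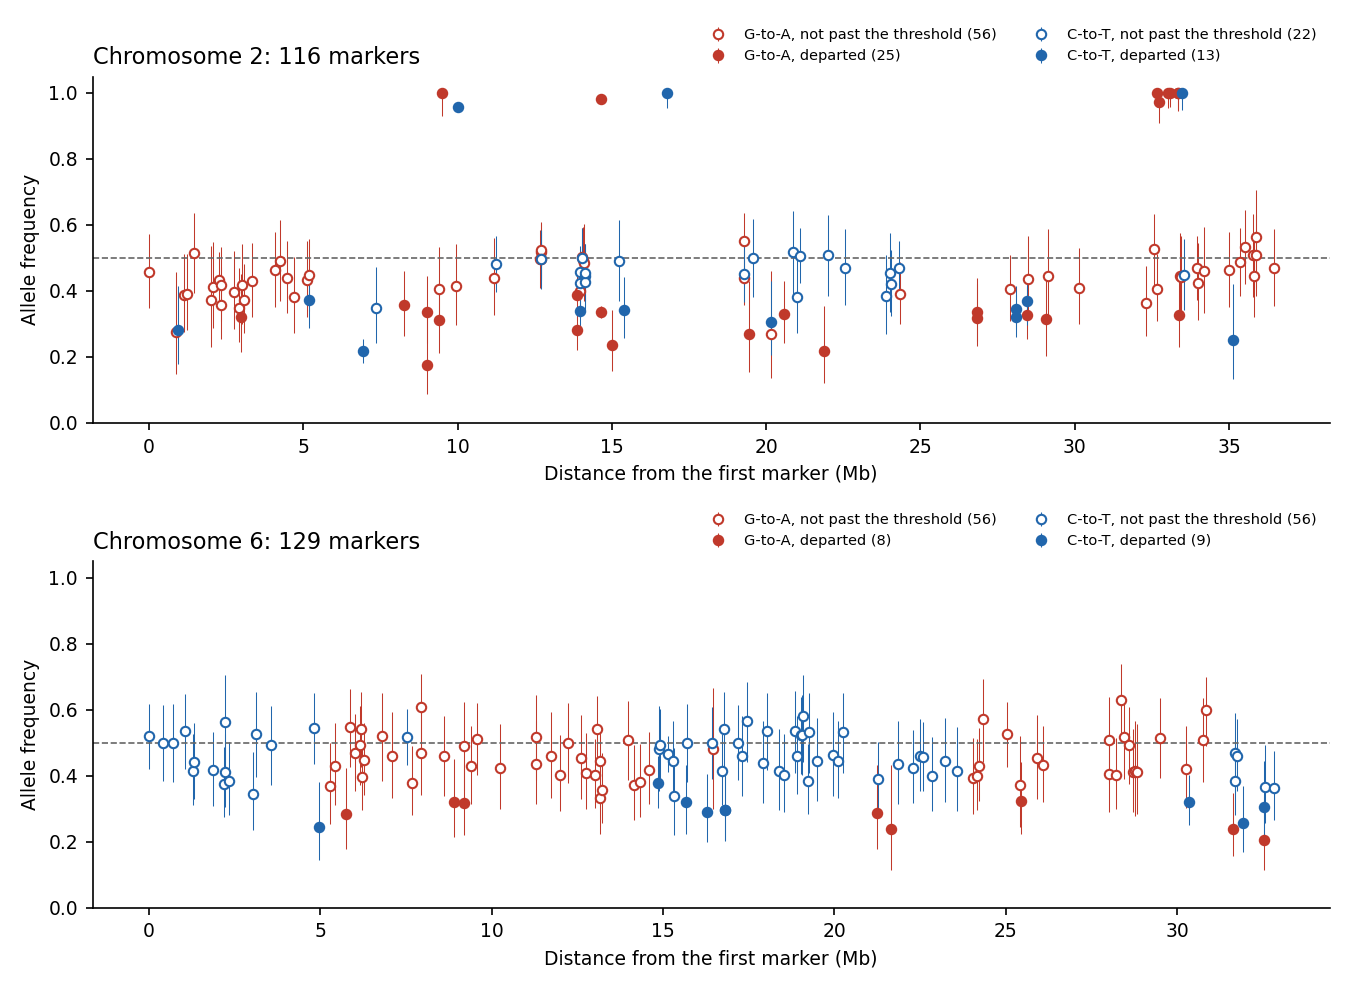
Allele frequency of each marker (y axis, bars 95% Wilson intervals) against its distance from the first marker of chromosome 2 (top) and chromosome 6 (bottom), coloured by type and filled where it departed from 0.5. The 11 markers near 1 are on chromosome 2, and all 17 filled points of chromosome 6 lie below 0.5.

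Against 0.468, the median of the 1116 markers on chromosomes 1 to 7, 16 markers were lower on chromosome 2 and 11 on chromosome 6, and 2 were higher on chromosome 6. This reference value was chosen after seeing the data.

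The lowest markers of chromosome 6 gathered near its right end. G32868352A was carried by 10 of 49 reads, an allele frequency of 0.204 (0.115 to 0.336; exact binomial test, adjusted p = 0.000211). G31954080A was carried by 18 of 75 reads, or 0.240 (0.158 to 0.348; exact binomial test, adjusted p = 4.4e-05), and C32252947T by 18 of 70, or 0.257 (0.169 to 0.370; exact binomial test, adjusted p = 0.000307). These 3 lay within 1 Mb of each other, and C32868402T, at 0.306 with 15 of 49 reads, was next to the lowest of them. G32868352A and C32868402T lay 50 bases apart, and 113 and 163 bases from a progenitor-listed site. The other low markers named by rule were C5308765T, at 0.245 with 12 of 49 reads, and G21989760A, at 0.240 with 6 of 25 reads. Their intervals, 0.146 to 0.381 and 0.115 to 0.434, overlapped those of the right-end markers.

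Along chromosome 6 the medians of 5 Mb bins were 0.467 at the left end (14 markers) and between 0.423 and 0.464 in the next 5 bins. The bin from 30 Mb to the end stood at 0.367 (13 markers, interval of the median 0.257 to 0.469), with 5 lower calls. Its median lay below the lower bound of every other bin of the chromosome (0.386 to 0.416), while its own interval overlapped all of theirs. The 5 lower calls of the last bin included the close pair G32868352A and C32868402T. They also included C30679571T, with 140 reads and 37 bases from a progenitor-listed site. The difference between bins was not tested. The Wilson interval of a marker held the median of its own bin for 112 of the 129 markers. Each marker helped to set that median, so this count is a description only.

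The highest markers of chromosome 6 did not pass the threshold. G28688468A, with 41 of 65 reads, stood at 0.631 (0.509 to 0.738; exact binomial test, adjusted p = 0.124). It was followed by G8265688A at 0.608 and G31178529A at 0.6, whose intervals held 0.5. No chromosome 6 marker reached 0.9, which was also so on chromosomes 1, 3 and 5. Of all pool markers 4.17% did, or 58, and 40 of these lay on chromosome 8.

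On chromosome 2 the 5 lowest markers were spread out. Its 27 lower calls as a set were less so, with 6 between 5 and 10 Mb and 7 between 25 and 30 Mb. The lowest was G9020418A, carried by 7 of 40 reads, or 0.175 (0.0875 to 0.320; exact binomial test, adjusted p = 0.00023). C6966010T followed at 0.217 with 109 of 503 reads (0.183 to 0.255), and G21891931A at 0.217 with 10 of 46 reads (0.123 to 0.356). G15024185A stood at 0.237 with 19 of 80 reads (0.158 to 0.341) and C35137385T at 0.250 with 8 of 32 reads (0.133 to 0.421). All 5 departed from 0.5, but C6966010T is far deeper than the others and lay 10 bases from a progenitor-listed site.

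The bins of chromosome 2 ran from 0.342 between 25 and 30 Mb to 0.488 from 35 Mb to the end (9 markers, range 0.250 to 0.564). In the lowest bin all 10 markers lay between 0.314 and 0.444, and 7 departed. These 10 were not 10 separate places. G26851190A and G26851193A lay 3 bases apart at 0.319 and 0.337, C28121778T and C28121867T 89 bases apart at 0.347 and 0.321, and G28475207A and C28475375T 168 bases apart at 0.328 and 0.368. A progenitor-listed site lay within 100 bases of each of these 6 markers. The other 4 were G29095185A (0.314), G27900183A (0.404), G28484484A (0.436) and G29150791A (0.444), of which only the first departed.

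The bins from 0 to 5 and from 5 to 10 Mb of chromosome 2 were low as well, with medians of 0.397 (21 markers) and 0.364 (12 markers). In the bin from 0 to 5 Mb no marker exceeded 0.516, and 2 of 21 departed, C946605T at 0.283 and G3001941A at 0.321. From 5 to 10 Mb, 6 of 12 were lower and 1 was higher. Summing the reads in place of taking the median put the highest bin of the chromosome between 10 and 15 Mb, at 0.675, where G14661417A has 3190 alternative reads among 3245. The Wilson interval of a marker held the median of its bin, which that marker helped to set, for 91 of the 116 markers.

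Depth separated a set of chromosome 2 markers from the others. Coverage was above 100 reads at 31 of its 116 markers, or 26.7%, the highest share of the 8 chromosomes, against 4 of 129 on chromosome 6 (3.10%) and 9.78% of all pool markers. The interquartile range of coverage was 61.8 to 113 reads on chromosome 2 and 56 to 73 on chromosome 6, with medians of 72.5 and 65. A progenitor-listed site lay within 1 kb of 29 of the 31 deep chromosome 2 markers and of all 4 deep chromosome 6 markers. Of the shallower ones this was so for 9 of 85 and 8 of 125. The median distance to the nearest progenitor-listed site was 0.045 kb for the deep markers of chromosome 2 and 14.8 kb for its shallower ones. Over all pool markers 13.9% had such a site within 1 kb.

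**Figure D4:**
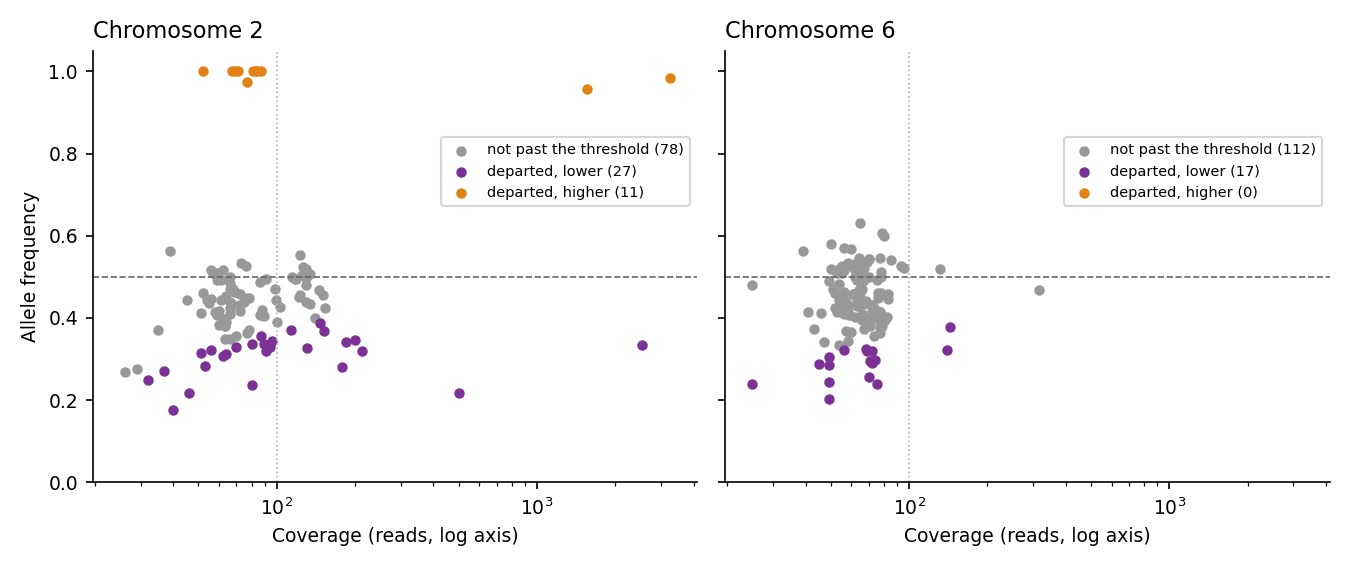
Allele frequency (y axis) against coverage in reads (log x axis) for the markers of chromosome 2 (left) and chromosome 6 (right), coloured by the outcome of the exact binomial test against 0.5, with 100 reads dotted. Chromosome 2 has 31 points right of the dotted line and chromosome 6 has 4.

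The deep markers of chromosome 2 lay in small groups. Between 11 and 15 Mb there were 18 of the 31. A group of 5, from G12675158A to C12732161T, had 117 to 129 reads and stood at 0.496 to 0.524. A group of 10, between 13899593 and 14139569, had 103 to 185 reads and ranged from 0.281 to 0.504. A group of 3, between 19312153 and 19312832, had 122 to 130 reads and ranged from 0.439 to 0.553. Of the first group 4 lay within 1 kb of a progenitor-listed site, as did all members of the other two. Whether these deeper sites segregate was not tested. Of the 27 lower calls on chromosome 2, 10 were at deep markers, and with a coverage of at most 100 reads there were 17 lower calls among 85 markers, against 15 among 125 on chromosome 6. Neighbours of 1 type then made up 78.6% of pairs on chromosome 2 and 90.3% on chromosome 6.

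At these minimums chromosome 2 held markers near fixation and chromosome 6 held none, although chromosome 6 had 5 with no quality minimum and 2 where only progenitor sites past the minimums were removed. Its 11 markers at 0.9 or more were also its 11 higher calls, and no other marker exceeded 0.564. No frequency lay between 0.564 and 0.957. Of the 11, 7 fell between 32695143 and 33504681, a stretch of 0.810 Mb, and 6 of these 7 were carried by every read. The reads were 87 of 87 at G32695143A, 75 of 77 at G32752327A and 81 of 81 at G33030591A. They were 84 of 84 at G33113756A, 71 of 71 at G33348011A, 67 of 67 at G33358681A and 69 of 69 at C33504681T. The lower Wilson bounds of the 6 fully carried markers ran from 0.946 for G33358681A to 0.958 for G32695143A.

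Markers in the same stretch stood at ordinary frequencies. Between G33358681A and C33504681T lay G33399601A with 23 of 70 reads, G33429444A with 25 of 56 and G33462447A with 27 of 61, at 0.329, 0.446 and 0.443. Their intervals, of which the highest upper bound was 0.576, did not reach those of the fully carried markers on either side. The 3 markers in the 1 Mb before the stretch stood at 0.364 to 0.526 and the 4 in the 1 Mb after it at 0.424 to 0.469. The fully carried markers sat among these few markers of ordinary frequency, and the cause of this pattern was not tested.

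The progenitor list held little of ordinary depth in the same stretch. Variants of the mutagen types that were near-fixed in both libraries, past both minimums in each and with at most 100 reads, numbered 215 on chromosome 2. Outside the stretch they occurred at 6.01 per Mb, with 8 in the 1 Mb before it and 6 in the 1 Mb after it. Inside it there was none. A part of this follows from the choice of the stretch, since its near-fixed markers are by rule without a progenitor entry. A count of 0 over 0.810 Mb allows up to 3.71 per Mb, for counting error only and for a window set beforehand, which this stretch was not. The progenitor list held 20 sites in the stretch, 11 of them with 525 to 2779 reads and 9 with 8 to 45 reads. None passed both minimums with at most 100 reads. Of the intervals between neighbouring progenitor sites of that kind on chromosome 2, the longest, 0.941 Mb, was the one that holds the stretch, and the next was 0.747 Mb. Intervals without sites near-fixed in both libraries were as long elsewhere. The longest between neighbouring sites of this kind, 1.17 Mb, lay outside the stretch, the one with the stretch measured 1.036 Mb and the next 0.925 Mb. The chromosome ends were left out, and the first such site lay at 1649828.

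The types of these shared sites changed across the stretch. All 8 in the 1 Mb before it were G-to-A and all 6 in the 1 Mb after it were C-to-T. Along chromosome 2 as a whole, 205 of 214 neighbouring pairs of shared near-fixed sites were of 1 type, with a longest run of 106. In the stretch, the near-fixed pool-only markers read G-to-A at the 6 left positions and C-to-T at the right one. The depth of the progenitor at these 7 positions is unknown, since positions that carry the reference base or too few reads have no entry, so an absent variant and an absent call cannot be told apart. The stretch was picked for its frequencies, and apart from the calls against 0.5 of its single markers nothing about it was tested.

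**Figure D5:**
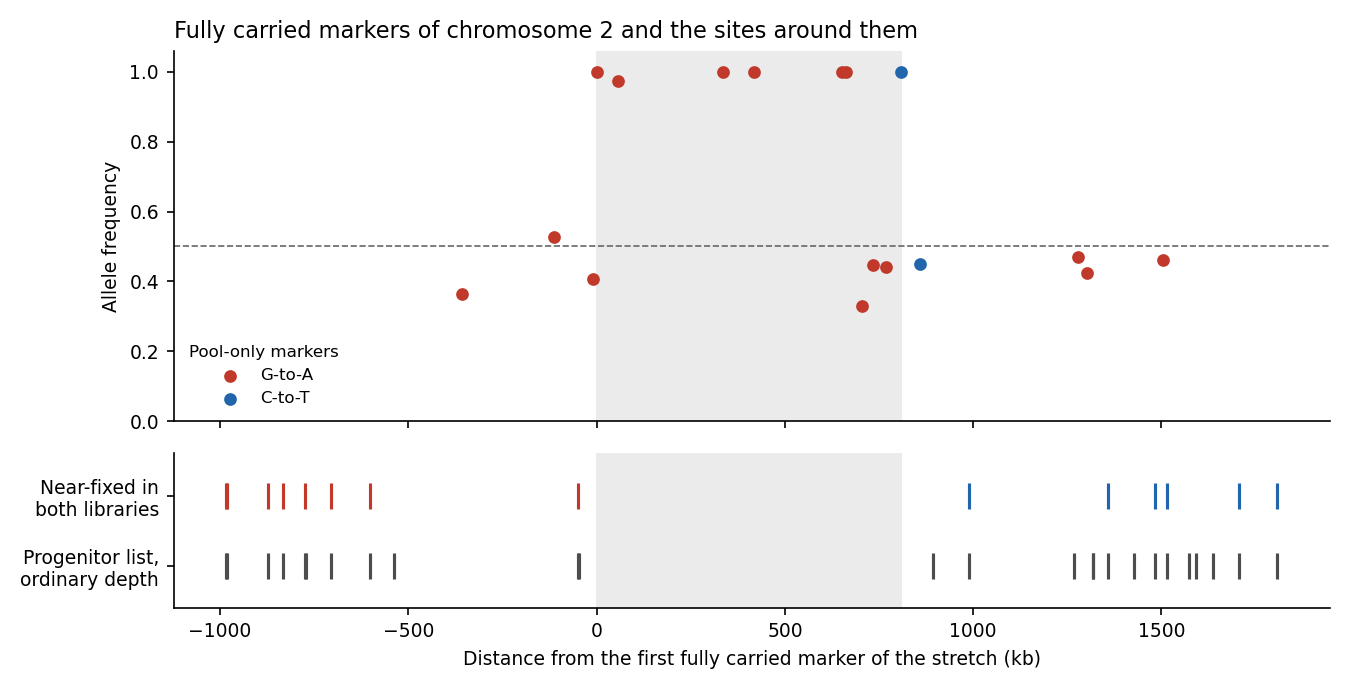
Top, allele frequency of pool-only markers of chromosome 2 against the distance from G32695143A in kb, coloured by type, with the stretch of 0.810 Mb shaded. Bottom, positions of G-to-A (red) and C-to-T (blue) sites near-fixed in both libraries and of progenitor sites past both minimums with at most 100 reads (grey), none of which falls in the shaded stretch.

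The other 4 near-fixed markers of chromosome 2 lay apart from each other. G9498684A was carried by 52 of 52 reads and had a progenitor-listed site 284 bases away. C16816025T was carried by 83 of 83 reads, with a variant quality of 30.5. C10024325T, at 0.957, and G14661417A, at 0.983, had 1551 and 3245 reads and qualities of 31.5 and 25.5. Low quality thus marked 3 of these 4, of which C10024325T and G14661417A also had a high read count. In the stretch, G32752327A had a quality of 26.5, while 5 of the fully carried markers had 214. Without the 11 near-fixed markers the median of chromosome 2 was 0.424 over 105 markers.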

How the data were processed

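Genomic DNA of 1 pool library (eop055BC1F2) and 1 progenitor library (pep1-1) was sequenced. The submitters' processing notes name Bowtie2, SAMtools and DESeq without version, role or order. No build or filter is stated. Both sheet names end in V3_6, which may stand for a version of the assembly or of the lists. The genotype in each sheet's name gave its sample. The sheet names carry different version labels, so lists made in different ways cannot be told apart from libraries that differ.

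The deposited allele frequency is a fraction, alternative reads over all reads. The column deposited as quality is whole-numbered and was read as the count of alternative reads. The column deposited as reads is a score that is never whole at the members (25.5 to 217) and was read as a variant quality. The count over a whole coverage gave the deposited fraction within 5e-05 at 245 of 245 members.

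Positions listed in the progenitor with any base were removed. Departure from 0.5 was tested with the exact binomial test, two-sided, and adjusted by Benjamini-Hochberg over 1390 markers. Wilson intervals (95%) cover the counting of reads, not the sampling of plants, and PCR copies were not distinguishable. The test was run on simulated reads drawn independently, and the block search on simulated blocks with fewer mismatched types than chromosome 2 held. These runs do not cover linked markers or the mixed middle block of chromosome 2. Blocks of 1 type minimised mismatched markers plus a cost of 3 per change.

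Sites named were all markers at 0.9 or more, the 5 lowest and the 5 highest departed markers per chromosome, the ends of the 2 longest runs, the closest pairs, and the sites nearest each minimum. Other sites were chosen after their values were seen. The members, lists and tests were chosen with earlier results of these data known. Alternatives changed the quality, coverage and progenitor rules, close markers, bins and thresholds. Computation used Python 3.11.15, numpy 2.4.6, pandas 2.3.3 and scipy 1.17.1, with figures from matplotlib 3.10.9.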

Additional observations from a re-analysis of the deposited data

How the results depend on the processing

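Of 112 values recomputed under alternatives, 89 stayed near the main value and 23 moved, and 12 belong to alternatives chosen after seeing the data. Near meant within 1.5 times the main value for counts, and within its 95% interval for medians and shares. Reversals of direction were not scored. Marker counts stayed within 1.5 times the main count, and median allele frequencies within their 95% intervals, under all alternatives run.

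With no quality minimum, lower calls rose to 44 on chromosome 2 and 31 on chromosome 6, higher calls to 17 and 5, and near-fixed markers on chromosome 6 to 5. Same-type pairs then made up 62.7% and 76.1%. With a quality minimum of 35, chromosome 2 kept 7 higher calls and 7 near-fixed markers. With a coverage maximum of 100 its lower calls were 17. Where only progenitor sites past the minimums were removed, same-type pairs were 60.5% and 77.9%, higher calls 20 and 2, and chromosome 6 had 2 near-fixed markers. By Wilson intervals without adjustment, chromosome 6 had 29 lower and 1 higher call. Against the median of chromosomes 1 to 7, lower calls were 16 and 11, and chromosome 6 had 2 higher calls. Without the stretch of fully carried markers, chromosome 2 had 4 near-fixed markers. Its highest bin was 0.675 by summed reads, and a block cost of 5 gave 1 block. The causes of these shifts were not tested, apart from the smaller numbers of sites or wider rules that the alternatives bring.

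Depth limits single markers: on chromosome 6, at a median of 65 reads, the typical interval reached 0.117 to each side. No paired analysis was possible because there was 1 library in each group, which also leaves no replicate to omit.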
